A study of Mus musculus with 8 samples.

Results

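The genes described here drive the cell division cycle and copy DNA, and their RNA was followed on 8 Affymetrix arrays of whole pancreas from mice 3 weeks old. The list named 56 symbols, and 51 had a probe set annotated to that symbol alone, out of 8251 genes so annotated on the array. The other 5 (Ccnb1, Cdc25b, Tyms, Bub1b and Pole) had no such probe set and were not analysed here. A gene with several probe sets was represented by the one with the highest mean over the 8 arrays.

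The 4 groups had 2 arrays each. BDC2.5/NOD.scid mice carry the BDC2.5 transgene, a rearranged T cell receptor taken from an islet-reactive CD4 clone, together with the scid mutation, which blocks the joining of antigen receptor segments. BDC2.5/NOD mice carry the transgene without scid, NOD.scid mice carry scid without the transgene, and NOD mice carry neither. All groups share the NOD background, an inbred strain that develops autoimmune diabetes, so none is free of NOD alleles. The scid mutation leaves myeloid and red cell precursors in place and removes mature B cells. In NOD.scid mice it also removes most T cells. The BDC2.5 transgene is already rearranged and needs no joining, so T cells that carry it can still form in BDC2.5/NOD.scid mice. Per the labels, 2 isolations of 6 animals each were combined, so an array reports pooled animals, and nothing in the labels tells if both arrays of a group hold the same pool. For that reason p-values cover only array-to-array spread, which may be technical. The tissue label was borne out by the acinar genes, with Ctrb1, a chymotrypsinogen, at 13.70 to 13.76 on the log2 scale in the group means. In whole tissue, fewer cells of a type and less RNA per cell cannot be told apart.

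Cells enter the cycle when D-type cyclins with Cdk4 release E2F factors, which switch on the genes of DNA synthesis. Origins are licensed by the Orc proteins, Cdc6 and the Mcm2 to Mcm7 helicase, and DNA is then copied by polymerases held on it by the Pcna clamp. Cdk1 with B-type cyclins brings the cell into mitosis, the spindle checkpoint proteins hold it until chromosomes are attached, and Cdc20 then activates the ligase that lets them part. Exocrine pancreas still grows by cell division in young mice, and precursors of blood cells also express these genes.

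Cell cycle genes fell in BDC2.5/NOD.scid pancreas relative to NOD.scid pancreas, across roles from DNA copying to mitosis. Of the 51 genes, 14 fell and none rose, whereas 4.03% of all 12422 probe sets tested fell in this comparison. Pcna fell by 1.04 on the log2 scale (SE 0.142, 2.06-fold lower), Stmn1, a protein that destabilises microtubules, fell by 0.81 (SE 0.1), Cdc20 fell by 0.76 (SE 0.113) and Cdk1 fell by 0.61 (SE 0.0984). The median log2 fold change was -0.23 over the 51 genes and 0.00 over all probe sets. On 31 of the 51 genes both BDC2.5/NOD.scid arrays lay below both NOD.scid arrays, and on 1 above them; 22.2% of all probe sets had both arrays below and 20.5% both above. The tests came from limma's moderated fit to all 8 arrays, with Benjamini-Hochberg adjustment across all 12422 probe sets and a threshold of 0.05. Without BDC2.5/NOD.scid replicate 2 or NOD.scid replicate 1 the count was 7, and without BDC2.5/NOD.scid replicate 1 or either BDC2.5/NOD array it was 9. Of all probe sets 3.58% were called in either direction without BDC2.5/NOD.scid replicate 2 and 4.19% without NOD.scid replicate 1, against 6.4% with all arrays. Without the arrays of high actin control 16 genes were lower and 1, Cdc25a, was higher, with 11.4% of all probe sets called. Pcna, Stmn1, Cdc20 and Cdk1 passed in each of the 20 alternative settings run for them.

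**Figure D1:**
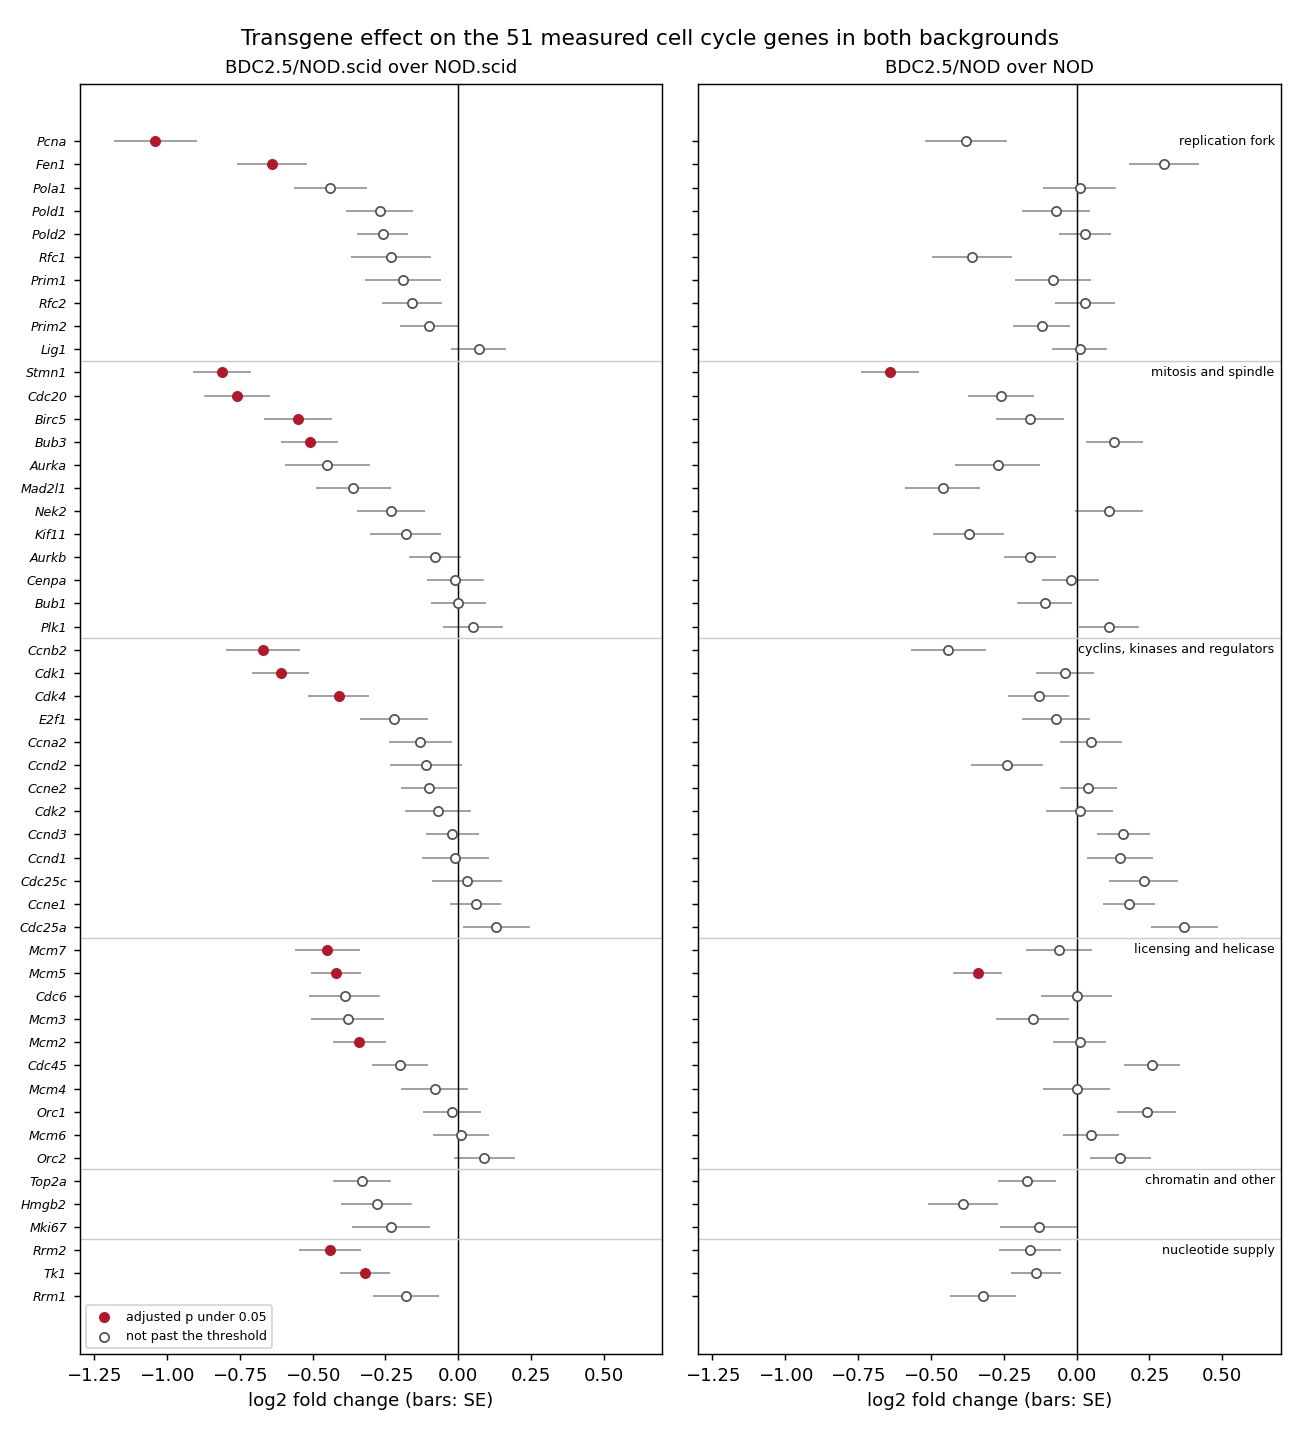
Log2 fold change (x axis, bars show SE) of each of the 51 measured cell cycle genes, grouped by role, for BDC2.5/NOD.scid over NOD.scid (left) and BDC2.5/NOD over NOD (right), with filled points for an adjusted p under 0.05. In the left panel 14 genes are filled, all below 0, with Pcna lowest at -1.04; in the right panel Stmn1 and Mcm5 are filled.

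NOD.scid stood highest of the 4 groups for most of the genes. Its mean was the highest on 39 of the 51 genes, against 24.6% of all probe sets. Both NOD.scid arrays lay above the other 6 arrays on 16 genes, where 6.45% of all probe sets showed this. These were Pcna, Cdc20, Cdk1, Mcm2, Mcm5, Mcm7, Ccne2, Cdc6, Rrm2, Tk1, Birc5, Pola1, Pold2, Stmn1, Hmgb2 and Nek2. The lowest mean was that of BDC2.5/NOD.scid on 20 genes (39.2%, against 24.5% of all probe sets), of BDC2.5/NOD on 15 and of NOD on 14. Both BDC2.5/NOD.scid arrays lay below the other 6 on 10 genes (6.96% of all probe sets), namely Pcna, Cdc20, Cdk1, Mcm7, Cdk4, Top2a, Bub3, Prim2, Fen1 and Rfc2. The mean log2 level over the 51 genes was 4.62 and 4.59 on the BDC2.5/NOD.scid arrays, 4.64 and 4.66 in BDC2.5/NOD, 4.86 and 4.87 in NOD.scid, and 4.69 and 4.75 in NOD. These ranks and means are descriptions, with no test.

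**Figure D2:**
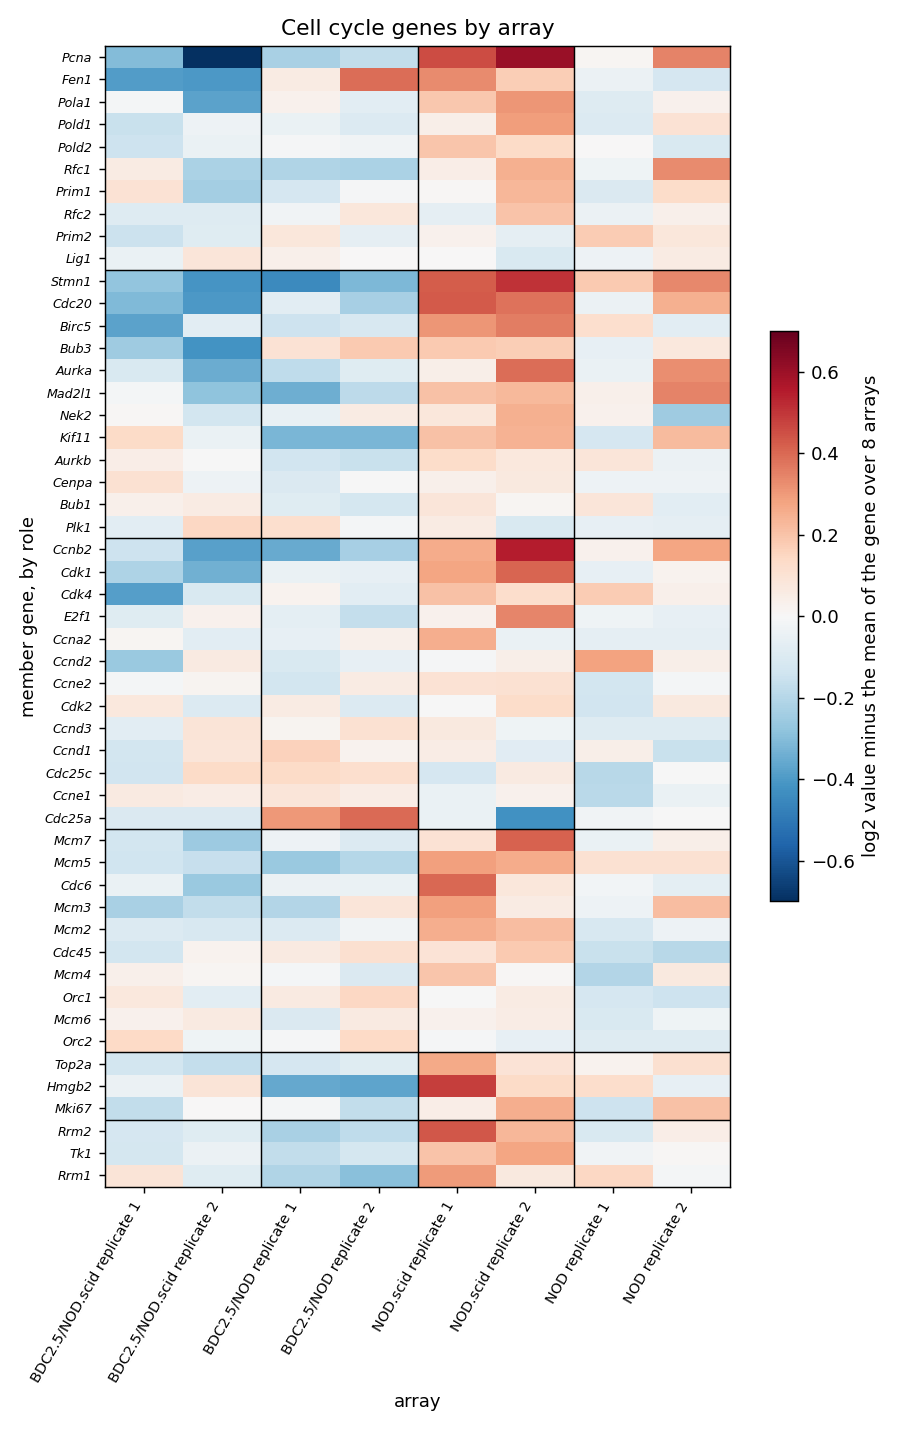
Log2 value of each cell cycle gene (rows, grouped by role) on each of the 8 arrays (columns), minus the mean of that gene over the 8 arrays; red is above and blue below that mean. The NOD.scid columns are red for most genes, and the NOD.scid mean was the highest of the 4 groups on 39 of 51.

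Among the genes of the replication fork, Pcna and Fen1 fell in BDC2.5/NOD.scid relative to NOD.scid, and the other 8 did not pass. Pcna, the sliding clamp of DNA polymerase, read 4.58 and 4.17 in BDC2.5/NOD.scid, 4.66 and 4.71 in BDC2.5/NOD, 5.34 and 5.49 in NOD.scid, and 4.90 and 5.23 in NOD. The transgenic arrays lay below all 4 arrays without the transgene (adjusted p = 0.000699 in the scid pair by limma, and 0.128 for BDC2.5/NOD over NOD, where the log2 fold change was -0.38). Fen1, the nuclease that trims the flaps of lagging strand fragments, read 3.37 and 3.36 in BDC2.5/NOD.scid, 3.82 and 4.15 in BDC2.5/NOD, 4.09 and 3.93 in NOD.scid, and 3.72 and 3.64 in NOD. Both BDC2.5/NOD.scid arrays were the lowest of the 8, and its log2 fold change over NOD.scid was -0.64 (SE 0.119, limma adjusted p = 0.00569, but 0.0525 without NOD.scid replicate 1). Fen1 was dim, and its mean of 3.76 lay below the median of all probe sets, 4.27. Pola1, the catalytic subunit of the polymerase that starts DNA chains, had a log2 fold change of -0.44 (limma adjusted p = 0.061). Pold1 and Pold2, subunits of the lagging strand polymerase, had log2 fold changes of -0.27 and -0.26, and Lig1, which seals nicks, one of 0.07. The remaining fork genes, the primase subunits Prim1 and Prim2 and the clamp loader subunits Rfc1 and Rfc2, lay between -0.23 and -0.10.

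Of the 10 licensing and helicase genes, Mcm5, Mcm7 and Mcm2 fell in the same comparison. Mcm5 read 5.94 and 5.92 in BDC2.5/NOD.scid, 5.82 and 5.88 in BDC2.5/NOD, 6.37 and 6.34 in NOD.scid, and 6.19 and 6.19 in NOD. Its transgenic arrays all lay below those without the transgene, and it fell both over NOD.scid (by 0.42, SE 0.0853, limma adjusted p = 0.00931) and, in BDC2.5/NOD, over NOD (by 0.34, limma adjusted p = 0.0304, a call that failed in 8 of 20 alternative settings). A dimmer probe set of Mcm5 did not bear this out, with a log2 fold change of 0.37 in the scid pair (limma adjusted p = 0.0908), and the mean of both probe sets gave -0.03. Mcm7 read 5.17 and 5.04 in BDC2.5/NOD.scid, 5.26 and 5.20 in BDC2.5/NOD, 5.40 and 5.71 in NOD.scid, and 5.25 and 5.34 in NOD. Mcm2 read 5.08 and 5.06 in BDC2.5/NOD.scid, 5.08 and 5.15 in BDC2.5/NOD, 5.43 and 5.39 in NOD.scid, and 5.06 and 5.14 in NOD. For both helicase subunits NOD.scid stood above the other 3 groups, and their log2 fold changes of -0.45 and -0.34 passed narrowly (limma adjusted p = 0.0322 and 0.0422), failing in 9 and 14 of 20 alternative settings. Mcm3 had a log2 fold change of -0.38 (limma adjusted p = 0.113) on its brighter probe set and fell by 0.61 on its dimmer one (limma adjusted p = 0.0124). Cdc6, which loads the helicase, was at -0.39 (limma adjusted p = 0.0859). Mcm4, Mcm6, Orc1, Orc2 and Cdc45, a helicase cofactor, lay between -0.20 and 0.09.

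Of the 3 genes of nucleotide supply, Rrm2 and Tk1 fell. Rrm2, the small subunit of ribonucleotide reductase, read 4.17 and 4.20 in BDC2.5/NOD.scid, 4.06 and 4.11 in BDC2.5/NOD, 4.72 and 4.52 in NOD.scid, and 4.18 and 4.33 in NOD. Tk1, thymidine kinase, read 6.22 and 6.30 in BDC2.5/NOD.scid, 6.17 and 6.22 in BDC2.5/NOD, 6.54 and 6.62 in NOD.scid, and 6.32 and 6.35 in NOD. In both, the NOD.scid arrays were the highest of the 8; for Tk1 all transgenic arrays lay below all others, and for Rrm2 the BDC2.5/NOD.scid and NOD arrays overlapped. The log2 fold changes over NOD.scid were -0.44 for Rrm2 (limma adjusted p = 0.028) and -0.32 for Tk1 (limma adjusted p = 0.0486). A dimmer Tk1 probe set was at 0.06 in the scid pair (limma adjusted p = 0.838), and the mean of both gave -0.13. The Tk1 call held in 3 of 20 alternatives and that of Rrm2 in 10 of 20. Rrm1, the large subunit, was at -0.18 and did not pass.

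Of 13 cyclins, kinases and their regulators, Cdk1, Ccnb2 and Cdk4 fell. Cdk1, the mitotic kinase, read 4.48 and 4.36 in BDC2.5/NOD.scid, 4.65 and 4.64 in BDC2.5/NOD, 4.97 and 5.10 in NOD.scid, and 4.64 and 4.72 in NOD (limma adjusted p = 0.00212 in the scid pair). BDC2.5/NOD.scid was lowest and NOD.scid highest, with BDC2.5/NOD and NOD overlapping between them. Ccnb2, a B-type cyclin that partners it, read 5.56 and 5.32 in BDC2.5/NOD.scid, 5.35 and 5.47 in BDC2.5/NOD, 5.96 and 6.25 in NOD.scid, and 5.73 and 5.98 in NOD. All transgenic arrays lay below all others; the log2 fold change was -0.67 in the scid pair (SE 0.128, limma adjusted p = 0.00721) and -0.44 for BDC2.5/NOD over NOD (limma adjusted p = 0.0537). Its call in the scid pair did not hold when BDC2.5/NOD.scid replicate 2 was left out (limma adjusted p = 0.0777) or NOD.scid replicate 2 was (0.0629). Cdk4, which acts early in the cycle, read 6.88 and 7.16 in BDC2.5/NOD.scid, 7.29 and 7.19 in BDC2.5/NOD, 7.47 and 7.39 in NOD.scid, and 7.44 and 7.30 in NOD. Its transgenic arrays all lay below the others, by a narrow margin. Its log2 fold change of -0.41 passed (limma adjusted p = 0.0378) but held in 7 of 20 alternatives, while its dimmer probe set fell by 0.55 (limma adjusted p = 0.00556). The G1 cyclins did not follow: Ccnd1, Ccnd2, Ccnd3, Ccne1 and Ccne2 had log2 fold changes between -0.11 and 0.06, none past the threshold. A dimmer probe set of Ccnd1 fell by 0.42 (limma adjusted p = 0.0171), so the probe sets of this gene disagreed. Ccna2, the S phase cyclin, was at -0.13, Cdc25a at 0.13, Cdk2 at -0.07, Cdc25c at 0.03 and E2f1 at -0.22, also short of the threshold.

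Of 12 genes of mitosis and the spindle, Stmn1, Cdc20, Birc5 and Bub3 fell. Stmn1 read 5.47 and 5.33 in BDC2.5/NOD.scid, 5.30 and 5.43 in BDC2.5/NOD, 6.17 and 6.25 in NOD.scid, and 5.93 and 6.08 in NOD. The transgenic arrays lay at 5.47 or below and the others at 5.93 or above, and Stmn1 fell in both backgrounds (limma adjusted p = 0.000324 in the scid pair and 0.0021 for BDC2.5/NOD over NOD). Without BDC2.5/NOD replicate 1 the limma adjusted p for BDC2.5/NOD over NOD was 0.0506, and a dimmer probe set was at -0.01 in the scid pair. Cdc20, the activator of the anaphase-promoting complex, read 4.90 and 4.81 in BDC2.5/NOD.scid, 5.14 and 4.98 in BDC2.5/NOD, 5.64 and 5.59 in NOD.scid, and 5.17 and 5.46 in NOD (limma adjusted p = 0.00125 in the scid pair). Here too every transgenic array lay below every array without the transgene. Birc5 (survivin), a subunit of the chromosomal passenger complex, read 3.54 and 3.84 in BDC2.5/NOD.scid, 3.77 and 3.80 in BDC2.5/NOD, 4.22 and 4.27 in NOD.scid, and 4.03 and 3.84 in NOD. Its log2 fold change of -0.55 (limma adjusted p = 0.0137) no longer passed when BDC2.5/NOD.scid replicate 1 was left out (0.109) and without either NOD.scid array (0.0553 and 0.0684). Bub3, a spindle checkpoint protein, read 5.63 and 5.46 in BDC2.5/NOD.scid, 5.98 and 6.06 in BDC2.5/NOD, 6.06 and 6.05 in NOD.scid, and 5.82 and 5.95 in NOD. BDC2.5/NOD.scid alone was low, by 0.51 on the log2 scale against NOD.scid (SE 0.0969, limma adjusted p = 0.00657, but 0.0659 without BDC2.5/NOD.scid replicate 2). A dimmer Bub3 probe set was at 0.14. The other 8 did not pass, with the mitotic kinase Aurka at -0.45 (limma adjusted p = 0.108), the checkpoint protein Mad2l1 at -0.36, Nek2 at -0.23, the spindle motor Kif11 at -0.18, Aurkb at -0.08, Cenpa at -0.01, Bub1 at 0.00 and Plk1 at 0.05.

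Top2a, Mki67 and Hmgb2 make up the last group, of chromatin proteins. Top2a, the topoisomerase that untangles sister chromosomes, was at -0.33 (limma adjusted p = 0.0848) and Hmgb2 at -0.28, neither past the threshold. Mki67, a common marker of dividing cells, depended on the probe set: that of higher mean was at -0.23 (limma adjusted p = 0.438), and the dimmer one, at a mean of 3.34, fell by 0.93 (SE 0.111, limma adjusted p = 0.000246). The dimmer probe set also fell by 0.69 in BDC2.5/NOD relative to NOD (limma adjusted p = 0.00247). In all, 19 of the 51 genes had 21 further probe sets, of which 4 fell in the scid pair (those of Mcm3, Cdk4, Ccnd1 and Mki67) and none rose.

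**Figure D3:**
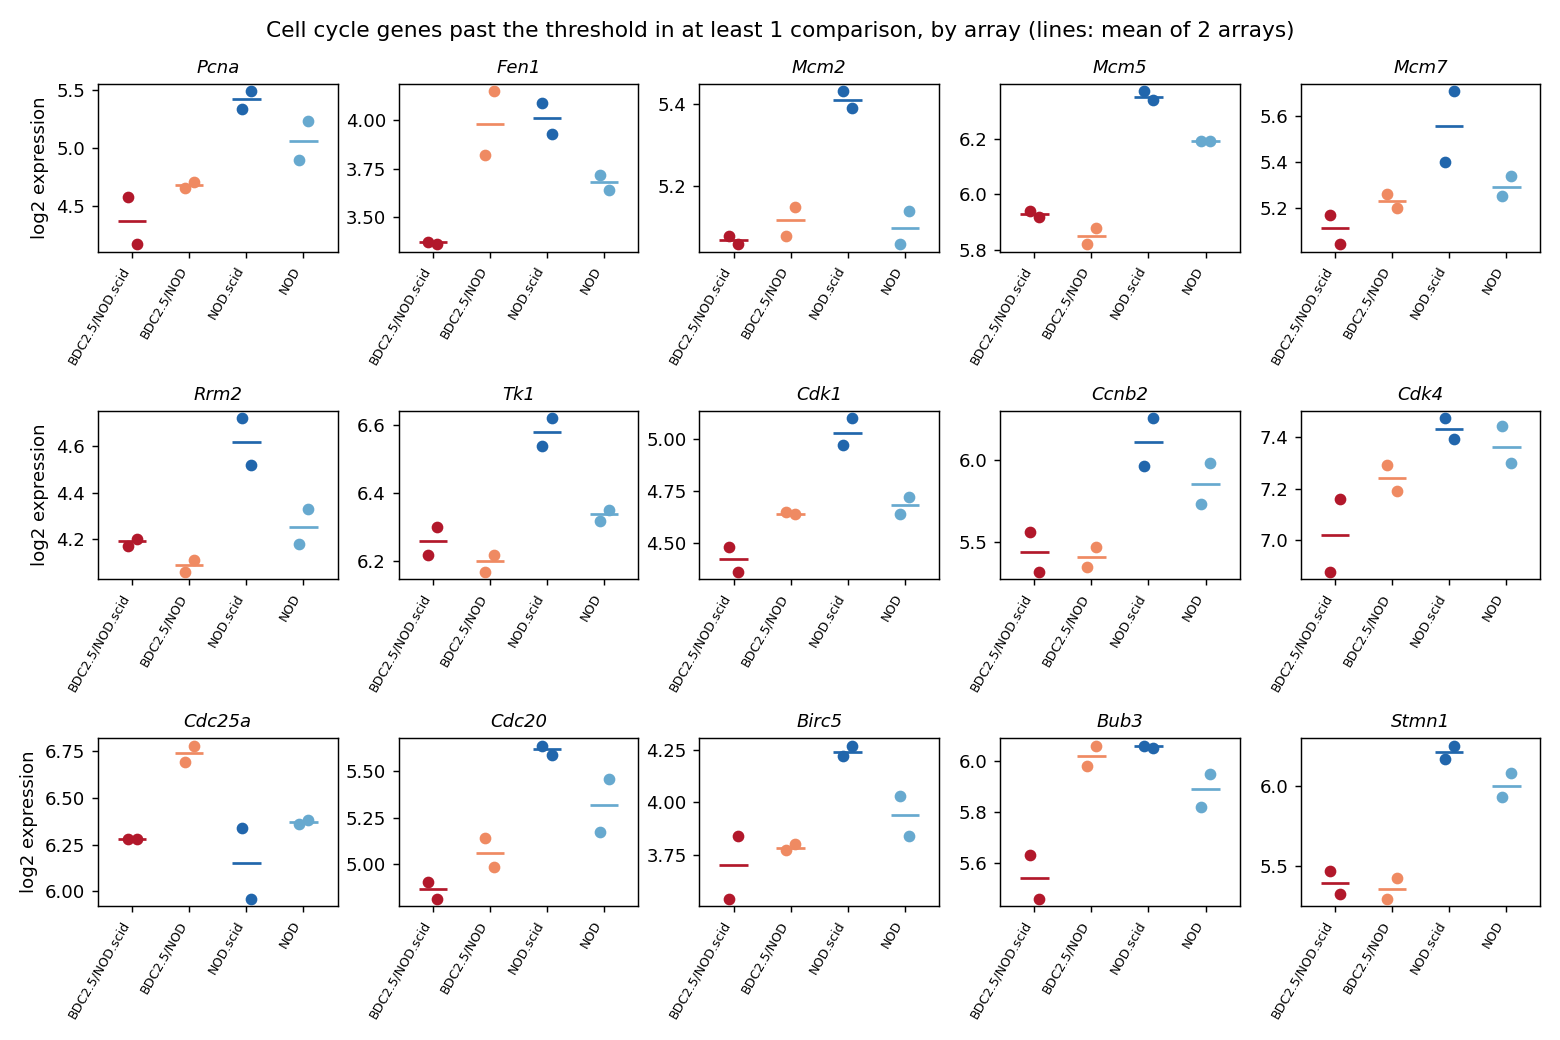
Log2 expression (y axis, own range in each panel) on each array for the 15 cell cycle genes past the threshold in at least 1 comparison; points are arrays and lines the mean of the 2 arrays of a group. For Pcna, Mcm5, Tk1, Ccnb2, Cdc20, Stmn1 and, narrowly (7.29 against 7.30), Cdk4 the 4 transgenic arrays lie below the 4 without the transgene. For Fen1 and Bub3 the BDC2.5/NOD.scid arrays alone are low.

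Upstream sequences are shown for 6 of the genes that fell, chosen to span DNA copying and mitosis, since many cell cycle genes are known to be read through E2F sites, CCAAT boxes bound by NF-Y, and the cell cycle homology region (CHR). Each line gives the 150 bases before the first listed RefSeq start of the gene, build GRCm38.p6, 5′ to 3′ on the gene's strand, with matches to the 3 motifs in capitals.
Pcna, chr2:132253181-132253330, minus strand: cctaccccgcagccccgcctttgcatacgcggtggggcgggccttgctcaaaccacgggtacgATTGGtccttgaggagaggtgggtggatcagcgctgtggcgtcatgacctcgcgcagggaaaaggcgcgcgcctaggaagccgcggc
Fen1, chr19:10204394-10204543, minus strand: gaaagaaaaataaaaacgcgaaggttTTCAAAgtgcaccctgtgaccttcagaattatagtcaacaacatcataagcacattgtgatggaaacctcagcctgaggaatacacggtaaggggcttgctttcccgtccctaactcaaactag
Mcm5, chr8:75109359-75109508, plus strand: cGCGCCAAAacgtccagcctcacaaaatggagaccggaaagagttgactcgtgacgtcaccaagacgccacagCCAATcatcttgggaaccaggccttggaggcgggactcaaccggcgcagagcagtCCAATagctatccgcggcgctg
Cdk1, chr10:69352913-69353062, minus strand: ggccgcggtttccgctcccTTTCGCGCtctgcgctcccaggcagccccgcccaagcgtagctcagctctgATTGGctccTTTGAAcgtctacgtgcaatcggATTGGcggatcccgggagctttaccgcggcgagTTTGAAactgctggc
Ccnb2, chr9:70421555-70421704, minus strand: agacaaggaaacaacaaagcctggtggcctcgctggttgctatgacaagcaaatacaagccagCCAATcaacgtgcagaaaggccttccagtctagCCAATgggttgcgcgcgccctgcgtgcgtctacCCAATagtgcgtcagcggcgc
Cdc20, chr4:118437344-118437493, minus strand: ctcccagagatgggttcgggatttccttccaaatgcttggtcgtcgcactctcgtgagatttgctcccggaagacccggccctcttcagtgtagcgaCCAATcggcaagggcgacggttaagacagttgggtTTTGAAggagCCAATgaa
The motifs searched, on both strands, were TTTCCCGC, TTTCGCGC, TTTGCCGC or TTTGGCGC for E2F, TTTGAA for the CHR and CCAAT for the CCAAT box. No string contains another. Each of the 6 sequences shown holds a match, whereas Cdk4, Tk1 and Birc5, which also fell, have none in their 150 bases. RefSeq upstream sequence matched 41 of the 51 genes, and over the 250 bases before the start 29 of them (70.7%) held a CCAAT box, 9 (22%) an E2F string and 11 (26.8%) a CHR string. Over the 27025 genes of the table these shares were 34.5%, 1.91% and 16.3%. Among the 13 genes that fell in the scid pair and had sequence, 9 held a CCAAT box, 3 an E2F string and 6 a CHR string; among the 28 others with sequence the counts were 20, 6 and 5. A match describes letters in this window and not a bound site.

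In BDC2.5/NOD relative to NOD, 2 of the 51 genes fell, Stmn1 and Mcm5, and none rose. This count lies near the share of all probe sets that fell, 4.06%. The median log2 fold change was -0.06, against 0.03 over all probe sets. Both BDC2.5/NOD arrays lay below both NOD arrays on 20 genes (22.8% of all probe sets) and above them on 11 (33.5% of all probe sets). Next to the 2 calls stood Mad2l1 at -0.46 (limma adjusted p = 0.052) and Ccnb2 at -0.44. Some genes pointed the other way without passing, such as Cdc25a, a phosphatase that activates Cdk2, at 0.37 (limma adjusted p = 0.0744), Fen1 at 0.30 and Cdc45 at 0.26. The count moved with the setting: it was 13 without the arrays of high actin control (11 lower and, higher, Cdc25a and Fen1), 9 with the actin control as a covariate (8 lower and Cdc25a higher), 5 with arrays centred, and 0 without BDC2.5/NOD replicate 1. The share of all probe sets called in either direction moved too, and was 17.5%, 10.4%, 8.44% and 2.25% in those settings, in that order, against 7.97% in the fit described.

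The difference between the 2 transgene effects was itself tested, as an interaction. For 3 of the 51 genes the effect was more negative in NOD.scid than in NOD, namely Fen1 (-0.94, SE 0.169, limma adjusted p = 0.00753), Bub3 (-0.65, SE 0.137, limma adjusted p = 0.0189) and Cdk1 (-0.58, SE 0.139, limma adjusted p = 0.0353), and for none was it more positive; 2.5% of all probe sets were lower in this test. Fen1 and Bub3 had opposite signs in the 2 backgrounds, at -0.64 and -0.51 in NOD.scid and 0.30 and 0.13 in NOD, where neither passed. A dimmer Bub3 probe set did not bear out the interaction, at 0.07 (limma adjusted p = 0.884). Cdk1 had -0.61 in NOD.scid and -0.04 in NOD. Pcna (-0.66) and Cdc20 (-0.51) did not pass the interaction test. Without BDC2.5/NOD replicate 2 none of the 3 passed (Fen1 at adjusted p = 0.0507), and without BDC2.5/NOD replicate 1, BDC2.5/NOD.scid replicate 2 or NOD replicate 1 Fen1 alone did.

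Without the transgene, scid came with slightly higher values of these genes, none past the threshold. NOD.scid lay above NOD in mean on 47 of the 51 genes, with a median log2 fold change of 0.15 against 0.03 over all probe sets. By limma, 0 of the 51 passed, against 2.35% of all probe sets in either direction, and 15 were higher at an unadjusted p under 0.05 (6.8% of all probe sets). Both NOD.scid arrays lay above both NOD arrays on 26 genes (24.8% of all probe sets). The smallest adjusted p was that of Cdk1, at 0.0969 with a log2 fold change of 0.36 (SE 0.0984), followed by Rrm2 at 0.37 and Mcm2 at 0.31. With the actin control as a covariate 3 passed, Pcna, Cdk1 and Rrm2, all higher in NOD.scid, and without the arrays of high actin control 7 did, 6 higher and 1 lower, Cdc25a. Of all probe sets 6.29% and 12% passed in those settings.

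With the transgene, scid separated few of the genes. In BDC2.5/NOD.scid relative to BDC2.5/NOD, Fen1 fell by 0.62 (limma adjusted p = 0.00719), Bub3 fell by 0.48 (0.00936) and Cdc25a fell by 0.46 (0.0285), and none rose, against 5.35% of all probe sets that fell. Cdc25a read 6.28 and 6.28 in BDC2.5/NOD.scid, 6.69 and 6.78 in BDC2.5/NOD, 6.34 and 5.96 in NOD.scid, and 6.36 and 6.38 in NOD, so BDC2.5/NOD alone was high. A dimmer Cdc25a probe set was at -0.01 in this comparison (limma adjusted p = 0.978) and at 0.09 for BDC2.5/NOD over NOD. The dimmer Bub3 probe set was at 0.10 in this comparison (limma adjusted p = 0.677). Both BDC2.5/NOD.scid arrays lay below both BDC2.5/NOD arrays on 14 genes (28.9% of all probe sets), and the median log2 fold change was -0.02. No call of the 3 remained without BDC2.5/NOD replicate 2, and Fen1 alone remained without BDC2.5/NOD replicate 1 or without BDC2.5/NOD.scid replicate 2. The comparisons share groups, so their values are set side by side and were not correlated.

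Other genes of the cycle, 94 measured of a second list, were also lower in part in the scid pair. In BDC2.5/NOD.scid relative to NOD.scid 14 of the 94 fell and none rose, against 4.03% of all probe sets that fell, with a median log2 fold change of -0.10. Cks2, a small subunit bound to Cdk1, fell by 0.94 (SE 0.124, limma adjusted p = 0.000568), Tfdp1, the partner of E2F factors, fell by 0.91, H2az1, a histone variant, fell by 0.83 and Tubb5, a beta-tubulin, fell by 0.65. In BDC2.5/NOD relative to NOD 8 fell (4.06% of all probe sets did) and 1, Ube2s, rose, with Smc4, a condensin subunit, at -0.86, the CDK inhibitor Cdkn1c at -0.83, the chromosome motor Kif22 at -0.72 and Rad21, a cohesin subunit, at -0.64. Cdkn1c, a restraint of the cycle, also fell in the scid pair, at -0.84. In NOD.scid relative to NOD none of the 94 passed by limma. At an unadjusted p under 0.05, 10 were higher (6.8% of all probe sets) and 6 lower, where the share of all probe sets was not computed. The smallest p belonged to Cks2 (log2 fold change 0.49), Tubb5 (0.34), Pttg1 (0.39) and Orc4 (-0.40). In BDC2.5/NOD.scid relative to BDC2.5/NOD 3 of the 94 fell, below the 5.35% of all probe sets, and 2 rose, with Tfdp1 at -0.95, Ran, a nuclear transport GTPase, at -0.56, Kif22 at 0.54 and Cdkn2d, a Cdk4 inhibitor, at 0.42. In the interaction 3 of the 94 were lower (2.5% of all probe sets), Tfdp1 at -1.11, Cks2 at -0.85 and Tubb5 at -0.67, and 1 was higher, Myc at 0.99.

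Markers of other cell types moved with the same groups, and their part in the cell cycle values was not tested. Of 14 erythroid genes, 6 fell and none rose in BDC2.5/NOD.scid relative to NOD.scid, and 7 rose in NOD.scid relative to NOD. Of all 12422 probe sets, 4.03% fell in the first comparison and 92 rose in the second. The mean log2 level of that list was 5.02 and 5.04 in BDC2.5/NOD.scid, 4.85 and 4.83 in BDC2.5/NOD, 5.73 and 5.72 in NOD.scid, and 4.93 and 4.93 in NOD. NOD.scid stood apart, with alpha globin (Hba-a1) at 12.04 in mean against 10.38 to 11.01 in the other groups and beta globin (Hbb-b2) at 8.60 against 6.77 to 7.38. The largest differences in the list were those of Car2, a carbonic anhydrase, at -2.64 for BDC2.5/NOD.scid over NOD.scid and 2.63 for NOD.scid over NOD, and Hemgn, at -1.80 and 1.99. The erythroid regulators, named here after their values were seen, passed in no comparison. By group means they were Gata1 (4.56 to 4.75), Klf1 (4.76 to 5.12), Epor (4.73 to 4.82) and, dimmer, Tal1 (3.03 to 3.30) and Nfe2 (3.89 to 4.25). Both NOD.scid arrays were the highest of the 8 for Klf1 (5.09 and 5.16) and Nfe2 (4.12 and 4.39), but not for Gata1, Epor or Tal1. Of 13 neutrophil genes, 5 fell in the scid pair and 6 rose in NOD.scid relative to NOD, and their mean level was 4.77 and 4.62 in BDC2.5/NOD.scid, 4.62 and 4.53 in BDC2.5/NOD, 5.24 and 5.35 in NOD.scid, and 4.62 and 4.73 in NOD. Csf3r, the brightest of them, lay at 7.72 to 7.94 in the group means, and Camp, next by level, at 6.78 in NOD.scid and 5.41 to 5.53 in the other groups. The calprotectin subunits S100a8 and S100a9 had log2 fold changes of -2.39 and -2.02 for BDC2.5/NOD.scid over NOD.scid, and 2.10 and 1.81 for NOD.scid over NOD.

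Macrophage genes went the opposite way in the scid pair, with 7 of 12 higher, where 295 of all 12422 probe sets were. Their mean level was 6.04 and 5.94 in BDC2.5/NOD.scid against 5.16 and 5.24 in NOD.scid. Fibroblast genes fell with the transgene in both backgrounds, 4 of 7 in the scid pair and 6 of 7 in BDC2.5/NOD relative to NOD. Of all probe sets 4.03% and 4.06% fell in these comparisons. None of 12 T cell or 7 B cell genes passed in any of the 5 tests by limma. In the scid pair, 2 T cell genes were higher at an unadjusted p under 0.05 and no B cell gene differed. Of all probe sets 7.0% were higher at that level in the scid pair. The defining T cell gene Cd3e was at 5.87 in BDC2.5/NOD.scid, 5.80 in BDC2.5/NOD, 5.64 in NOD.scid and 5.67 in NOD. In the same order of groups, the brightest T cell genes were Zap70 (7.37, 7.30, 7.40 and 7.28) and Cd4 (6.37, 6.29, 6.22 and 6.11). Thy1 was highest in NOD, at 5.62. Of the 12 T cell genes, 8 had a positive log2 fold change in the scid pair and 4 a negative one. For NOD.scid over NOD the median log2 fold change was 0.05 for the T cell list and 0.10 for the B cell list, though scid removes most such cells. Whether these probe sets track lymphocyte content in whole pancreas was not tested. The 9 acinar genes had a mean level of 11.11 and 11.08 in BDC2.5/NOD.scid and 11.09 and 11.09 in NOD.scid, with none past the threshold and 2 higher at an unadjusted p under 0.05. No endothelial gene of 6 and no duct gene of 5 passed in the scid pair, where 1 endothelial gene was higher and 2 lower, and 3 duct genes lower, at an unadjusted p under 0.05. The share of all probe sets lower at that level was not computed, so these counts have nothing to be set against. Of 5 beta cell genes 2 fell.

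**Figure D4:**
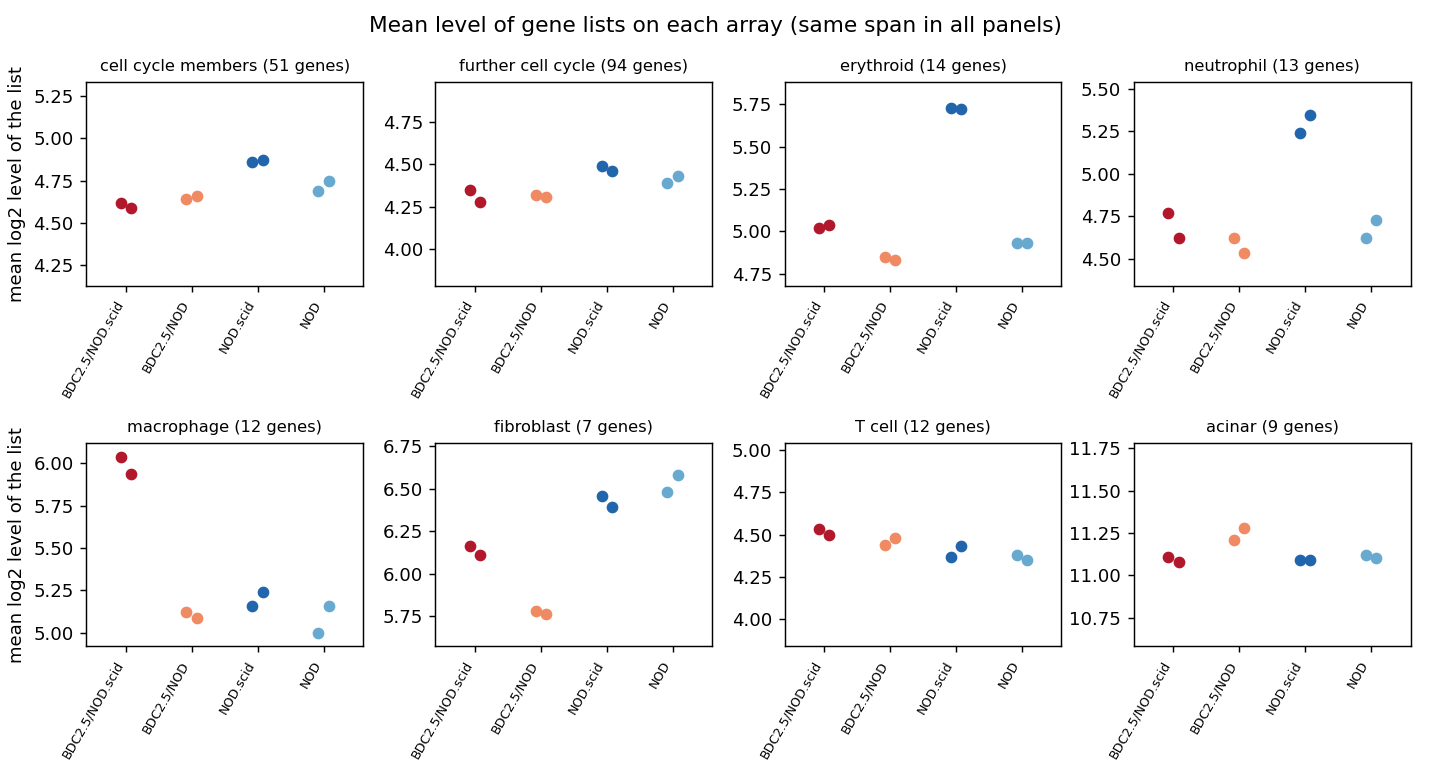
Mean log2 level (y axis, same span in each panel) of 8 gene lists on each array, by group; each point is an array. The cell cycle, erythroid and neutrophil lists are highest on the NOD.scid arrays, and the macrophage list on the BDC2.5/NOD.scid arrays.

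Arrays also differed in the beta-actin control, which read 9.26 to 9.55 on BDC2.5/NOD.scid replicate 2, NOD.scid replicate 1 and NOD replicate 1 and 6.95 to 7.74 on the other 5. The ratio of its 3′ to its 5′ probe set was also higher on those arrays, at 4.14, 3.94 and 4.9, against 3.15 to 3.53 on the other 5. Whether RNA quality differed between the arrays was not tested. The split by actin control crosses the groups, so the scid pair could be compared inside it, with 1 array a side. Between the arrays of low actin control (BDC2.5/NOD.scid replicate 1 and NOD.scid replicate 2) the median difference over the 51 genes was -0.24, with 40 genes negative. Between those of high actin control it was -0.24, with 42 genes negative. Over all probe sets the medians were -0.01 and 0.00. On 31 of the 51 genes both BDC2.5/NOD.scid arrays lay below both NOD.scid arrays. Those differences could only be negative, and so could both medians, so the signs here are no separate support. The genes that fell are among those 31, and only the sizes of their differences could vary. At low and then high actin control these were -0.91 and -1.17 for Pcna, -0.69 and -0.83 for Cdc20, and -0.78 and -0.85 for Stmn1. For NOD.scid relative to NOD the medians were 0.10 and 0.16, against 0.02 and 0.03 over all probe sets. Their sign too was fixed, since both NOD.scid arrays lay above both NOD arrays on 26 of the 51 genes. The BDC2.5/NOD arrays were both of low actin control, where their mean differed from NOD replicate 2 by a median of -0.06. For BDC2.5/NOD.scid replicate 1 against that pair the median was 0.00.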

How the data were processed

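Whole pancreas RNA was measured on 8 Affymetrix arrays, 2 for each of 4 groups taken from the sample titles. The authors deposited 1 log2 value per probe set and array; the log base is not stated and was taken as 2 from the range of values (array medians 4.24 to 4.30, highest value 13.78), so every fold rests on that reading. The way probe signals were summarised and normalized was not given in the sources used here. No depth applies to arrays, and the number of arrays limits the precision.

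The deposited values were used without further normalization. Of 12488 probe sets, 66 array controls were left out and 12422 tested with limma 3.58.1 in R 4.3.3 (group means over all 8 arrays, variance trend, 4 residual degrees of freedom, two-sided, Benjamini-Hochberg). On simulated data for BDC2.5/NOD.scid over NOD.scid, with 12422 probe sets, 72% of changes of 0.5 log2 units and 100% of changes of 1 were recovered. Of the calls made there 6.44% were false. The simulated noise was normal and independent at the fitted spread. It held no array-wide effect such as the actin difference, so it does not show how the fit performs with one.

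Values on all arrays are given for genes past the threshold in at least 1 comparison; of the second cell cycle list the 4 of smallest p in each comparison are named, and of the cell type lists mainly the brightest genes. Cdkn1c in the scid pair, the erythroid regulators and Cd3e were named after their values were seen. The genes and lists were chosen with earlier results of these data known. Alternatives covered normalization, filters, the fit, the actin control, the probe set per gene and left-out arrays. Upstream sequences are RefSeq's, on GRCm38.p6.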

Additional observations from a re-analysis of the deposited data

Results flagged for a closer look

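The transgene effect differed between backgrounds for 3 genes, by limma's interaction test adjusted over all probe sets. Fen1 differed by -0.94 on the log2 scale (transgene effect in NOD.scid minus that in NOD), with both BDC2.5/NOD.scid arrays below both NOD.scid arrays and both BDC2.5/NOD arrays above both NOD arrays. Bub3 differed by -0.65 and Cdk1 by -0.58. A dimmer Bub3 probe set differed by 0.07 (limma adjusted p = 0.884). The adjusted p lay between 4.54e-05 and 0.0507 for Fen1, between 0.00936 and 0.288 for Bub3 and between 0.0203 and 0.158 for Cdk1 over the alternatives run.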

How the results depend on the processing

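Over 22 gene results and 433 alternative values, 317 kept direction and call, 116 kept direction but not the call, and 0 reversed. Why calls were lost was not tested. Only genes called in the fit described were followed. In each call between 2 groups both arrays of one lay beyond both of the other. Leaving out 1 array could then not reverse the direction, so the lack of reversals was largely fixed in advance. For BDC2.5/NOD.scid over NOD.scid the count of 14 was 7 with only the arrays compared, 9 with the BDC2.5/NOD pair counted as 1 sample, 8 at an adjusted p under 0.01, 18 with the actin covariate, 17 without the arrays of high actin control (16 lower, 1 higher, with 12 of the 14 kept), and 7 to 12 with 1 array left out. For BDC2.5/NOD over NOD the count of 2 was 5 under quantile normalization or centring, 6 with only the arrays compared, 7 with array weights, 9 with the actin covariate, 13 without the arrays of high actin control, 1 with the pair as 1 sample, 4 with probe sets averaged, 1 at an adjusted p under 0.01, and 0 to 5 with 1 array left out. For NOD.scid over NOD the count of 0 was 3 with the actin covariate and 7 without the high-actin arrays. For BDC2.5/NOD.scid over BDC2.5/NOD the count of 3 was 5 with only the arrays compared or the actin covariate, 7 without the high-actin arrays, 1 with the pair as 1 sample or probe sets averaged, and 0 to 4 with 1 array left out. The interaction count of 3 was 7 without the high-actin arrays, 1 with the pair as 1 sample or at an adjusted p under 0.01, and 0 to 4 with 1 array left out; the fit on only the arrays compared was not run for it. Most of these counts stand without the share of all probe sets called, so they do not tell if these genes moved apart from the others. That share also moved with the setting. For BDC2.5/NOD.scid over NOD.scid it was 3.66% with only the arrays compared and 10.6% with the actin covariate, against 6.4% in the fit described. With the title number as a replicate block the counts were 9 for BDC2.5/NOD.scid over NOD.scid (5.21% of all probe sets) and 1 for BDC2.5/NOD over NOD. Only 1 array of each group carries a number in its title, and the other was called replicate 2 here. Deviations of same-numbered arrays correlated at -0.322 to 0.287. With the actin control also differing between arrays, these values cannot settle if the numbers pair arrays, and no pairing was assumed. Leaving out the high-actin arrays leaves 1 array in 3 groups, assumed to vary like the BDC2.5/NOD pair. Of the 51 genes 32 had a mean above 4.27, and dim probe sets limit the rest.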
